A study of Mus musculus with 8 samples.

Results

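The genes described here encode the proteins of the mitochondrial ribosome that carry a standard Mrpl (large subunit) or Mrps (small subunit) symbol. They were taken by symbol alone, as every locus of the deposited gene table with such a name, whatever its values. The rule found 76 of 23100 listed loci, 47 large-subunit and 29 small-subunit by name. All 76 were among the 12133 genes that Cuffdiff tested, so no member was lost to a filter on low values.

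RNA was measured in cardiac ventricles of 8 mice aged 4.5 months, 4 per genotype. DKO mice were Sox5fl/fl and Sox6fl/fl and positive for aMHC-Cre. Ctrl mice carried the same floxed alleles and were negative for aMHC-Cre, so the presence of Cre and the loss of both transcription factor genes cannot be told apart. The αMHC promoter acts in cardiomyocytes, so the design leaves both genes intact in the other cells of the ventricle, which was not measured here. Pressure overload appears in the title of the series, but no label records surgery on these animals.

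All levels below are FPKM, read counts scaled by transcript length and library size. The authors gave 1 value per genotype, pooled over 4 animals, so no spread between animals can be shown beside any value. A gene is said to have fallen or risen only where the authors' Cuffdiff test gave a q (the p-value adjusted over all tested genes) of at most 0.05. Log2 ratios are DKO over Ctrl, and a negative ratio is lower in DKO. Read depth is unknown here. Sox6 fell to 1.69 FPKM in DKO, against 3.39 FPKM in Ctrl (q 0.00158 in the authors' deposited table). Sox5 was at 0.497 FPKM in DKO and 0.369 FPKM in Ctrl and was not tested, so it checks nothing. The cardiomyocyte identity of the tissue was plain in both genotypes, with the ventricular myosin light chain gene Myl2 at 17014 FPKM in DKO and 20639 FPKM in Ctrl.

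The mitochondrial ribosome translates the few messages that mitochondrial DNA encodes, all of them for core subunits of the oxidative phosphorylation complexes. Its proteins are encoded in the nucleus, made in the cytosol and imported, and they assemble on RNAs transcribed inside the organelle. The small subunit binds and decodes the message, and the large subunit joins the amino acids and, at its tunnel exit, faces the inner membrane. Heart muscle is rich in mitochondria and depends on oxidative phosphorylation.

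Genes of the mitochondrial ribosome were lower in DKO as a group, with a summed level that differed by -10.2%. Summed over all tested genes, the level differed by -6.77%, and over those with a mean of at least 10 FPKM by -7.14%. Among the members, 10 of 76 fell and none rose. The 10 were Mrps28, Mrps9, Mrps22, Mrps35 and Mrps31 of the small subunit and Mrpl45, Mrpl50, Mrpl32, Mrpl46 and Mrpl37 of the large subunit. They make up 13.2% of the members, beside 3.06% of all tested genes that fell and 4.3% that rose. Among the 6079 tested genes with a mean level of at least 10 FPKM, 4.29% fell, and among the 74 members in that class 13.5% did. At an unadjusted p of at most 0.05, 25 members (32.9%) were lower and 0 were higher, beside 7.76% of all tested genes lower and 8.77% higher. In bulk tissue, fewer cells of a type and less RNA per cell cannot be told apart.

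Of the 76 members, 73 (96.1%) had a ratio below 0, beside 51.0% of all tested genes and 59.0% of those at 10 FPKM or more. The median log2 ratio of the members was -0.15, with the middle of the distribution between -0.24 and -0.09. The median over all tested genes was -0.0042, and -0.03 at 10 FPKM or more. Summed over the members, the level was 5499 FPKM in DKO and 6120 FPKM in Ctrl. The members spanned a wide range of abundance, between 7.80 and 443 FPKM in DKO and between 8.75 and 526 FPKM in Ctrl. Across the 76 members, the log2 ratio and the mean level had a Spearman rho of 0.129 and a Pearson r of 0.115, values that share the same 2 pooled measurements. The members that fell had a median level of 49.4 FPKM and the others 54.4 FPKM, both as means of the genotypes.

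**Figure D1:**
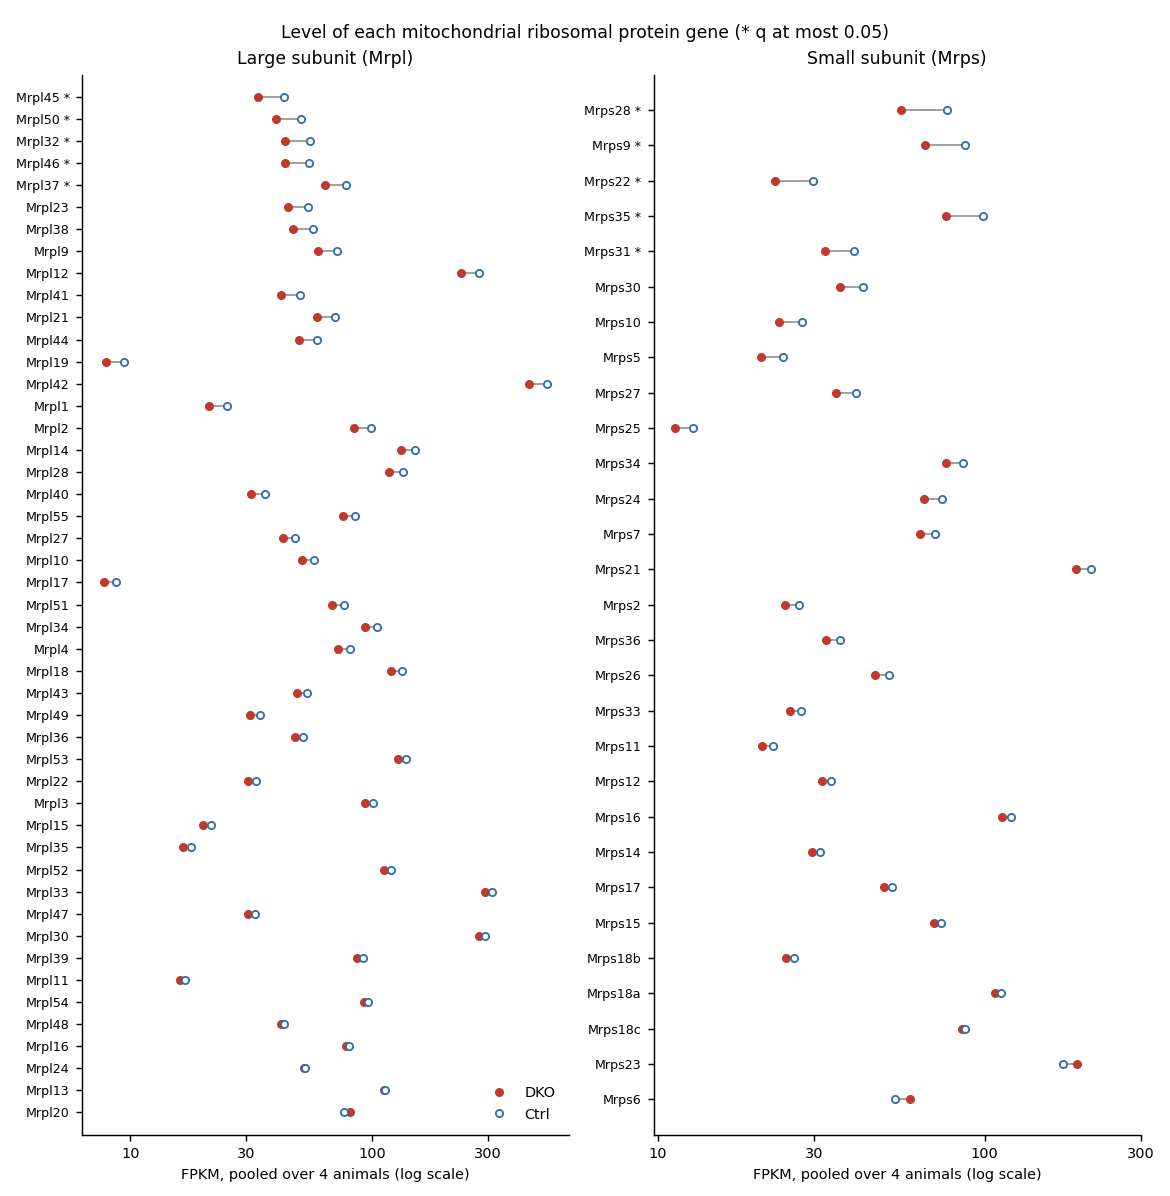
Level of every member in FPKM on a log axis, 1 pooled value per genotype, with DKO as filled red points and Ctrl as open blue points, ordered by log2 ratio within the large (left) and small (right) subunit. An asterisk marks a q of at most 0.05, and the DKO point lies left of the Ctrl point in 73 of 76 genes.

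The 4 lowest ratios of the set were those of small-subunit genes. Mrps28 (mm9 chr3:8802146-8923857), a protein of the small subunit, fell to 55.3 FPKM in DKO, against 76.6 FPKM in Ctrl, a 1.39-fold lower level and a log2 ratio of -0.47. Mrps9 (chr1:42908078-42962528), which sits in the head of the small subunit, fell to 65.5 FPKM in DKO, against 87.2 FPKM in Ctrl (log2 -0.41). The authors' deposited table gives both a q of 0.00158, from the smallest p it holds, 5e-05. Mrps22 (chr9:98489150-98502098) encodes a mitochondria-specific protein whose variants impair mitochondrial translation in humans. It fell to 22.7 FPKM in DKO, against 29.7 FPKM in Ctrl (log2 -0.39, q 0.0128 in the authors' deposited table). Mrps35 (chr6:146991292-147019424), also mitochondria-specific, fell to 76.4 FPKM in DKO, against 98.5 FPKM in Ctrl (log2 -0.37, q 0.00517). Mrps31 (chr8:23521812-23540137) fell to 32.4 FPKM in DKO, against 39.7 FPKM in Ctrl (log2 -0.29), with the highest q of the 10 genes, 0.0485 in the authors' deposited table.

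The large-subunit genes that fell lay within a narrow band, between 1.22-fold and 1.28-fold lower in DKO. Mrpl45 (mm9 chr11:97177030-97191234), which holds the ribosome at the inner membrane near the tunnel exit, fell to 33.7 FPKM in DKO, against 43.1 FPKM in Ctrl (log2 -0.35, q 0.00517 in the authors' deposited table). Mrpl50 (chr4:49525469-49533955), a mitochondria-specific protein, fell to 39.9 FPKM in DKO, against 50.7 FPKM in Ctrl (log2 -0.34, q 0.0102). Mrpl32 (chr13:14702568-14705304), whose precursor is trimmed by the m-AAA protease before it joins the ribosome, fell to 43.8 FPKM in DKO, against 55.4 FPKM in Ctrl (log2 -0.34, q 0.0367). Mrpl46 (chr7:85920227-85927975), of the central protuberance, fell to 43.7 FPKM in DKO, against 54.9 FPKM in Ctrl (log2 -0.33, q 0.0293). Mrpl37 (chr4:106728479-106739471), mitochondria-specific, fell to 63.8 FPKM in DKO, against 77.7 FPKM in Ctrl (log2 -0.28, q 0.0329). All 10 loci lie on 9 chromosomes, and the 76 members on 17.

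No clear step separated these genes from the rest. The called gene with the smallest difference, Mrpl37 (-0.28), stood next to the uncalled gene with the largest, Mrpl23 at 44.9 FPKM in DKO and 54.1 FPKM in Ctrl (log2 -0.27, q 0.208 in the authors' deposited table). Mrpl23 was 1 of 15 members that had an unadjusted p of at most 0.05 without passing the threshold, with log2 ratios between -0.27 and -0.19. Those nearest to it were Mrpl9 (59.7 FPKM in DKO and 71.5 FPKM in Ctrl, q 0.0621), the stalk protein gene Mrpl12 (232 FPKM in DKO and 277 FPKM in Ctrl, q 0.0638), Mrpl38 of the central protuberance (47.1 FPKM in DKO and 56.7 FPKM in Ctrl, q 0.0777) and Mrpl42 (443 FPKM in DKO and 526 FPKM in Ctrl, q 0.0804), with q from the authors' deposited table. MRPL44 is a gene of infantile cardiomyopathy in humans, and Mrpl44 was at 49.6 FPKM in DKO and 59.0 FPKM in Ctrl (log2 -0.25, q 0.113). Mrpl2, of the catalytic core, had a q of 0.143, and Mrps30, counted with the small subunit by name, was at 36.0 FPKM in DKO and 42.5 FPKM in Ctrl (log2 -0.24, q 0.147). The scarcest of the 15 was Mrpl19, at 7.90 FPKM in DKO and 9.40 FPKM in Ctrl (log2 -0.25, q 0.172). Mrpl41 (42.1 FPKM in DKO and 50.2 FPKM in Ctrl, q 0.177) and Mrpl21 (58.9 FPKM in DKO and 70.2 FPKM in Ctrl, q 0.200) had log2 ratios of -0.26 and -0.25. The remaining 4 had the weakest evidence, with q between 0.247 and 0.301. They were Mrps5, a protein of the mRNA path, Mrpl28 (117 FPKM in DKO and 134 FPKM in Ctrl, log2 -0.19), Mrpl1 (21.2 FPKM in DKO and 25.1 FPKM in Ctrl, log2 -0.24) and Mrps10 of the head (23.4 FPKM in DKO and 27.6 FPKM in Ctrl, log2 -0.23).

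Only 3 members had a ratio above 0, and none of them passed the test. The Mrps6 locus was at 59.1 FPKM in DKO and 53.1 FPKM in Ctrl (log2 0.15, q 0.690 in the authors' deposited table), and it is listed jointly with Slc5a3, a myo-inositol transporter gene. Mrps6 alone, as its own isoform, was at 58.0 FPKM in DKO and 52.3 FPKM in Ctrl, and Slc5a3 at 1.10 FPKM in DKO and 0.826 FPKM in Ctrl. Mrps23 was at 192 FPKM in DKO and 173 FPKM in Ctrl (log2 0.15, q 0.471). Mrpl20 was at 80.7 FPKM in DKO and 76.3 FPKM in Ctrl (log2 0.08, q 0.848). Mrpl13, at 112 FPKM in both genotypes, and Mrpl24, at 52.4 FPKM in DKO and 52.8 FPKM in Ctrl, were within 0.02 of no difference on the log2 scale.

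Both subunits had medians below 0. In the large subunit 5 of 47 genes fell, 46 had a ratio below 0 and the median log2 ratio was -0.16. In the small subunit 5 of 29 fell, 27 had a ratio below 0 and the median was -0.14. The medians differed by -0.017, large minus small, and by -0.048 when each gene was represented by its most abundant isoform. Single genes ran between -0.35 and 0.08 in the large and between -0.47 and 0.15 in the small subunit. The summed level of the large subunit was 3815 FPKM in DKO and 4273 FPKM in Ctrl, a difference of -10.7%. For the small subunit it was 1684 FPKM in DKO and 1848 FPKM in Ctrl, a difference of -8.83%. The sum over all tested genes differed by -6.77%. This comparison is a description of genes and has no test.

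**Figure D2:**
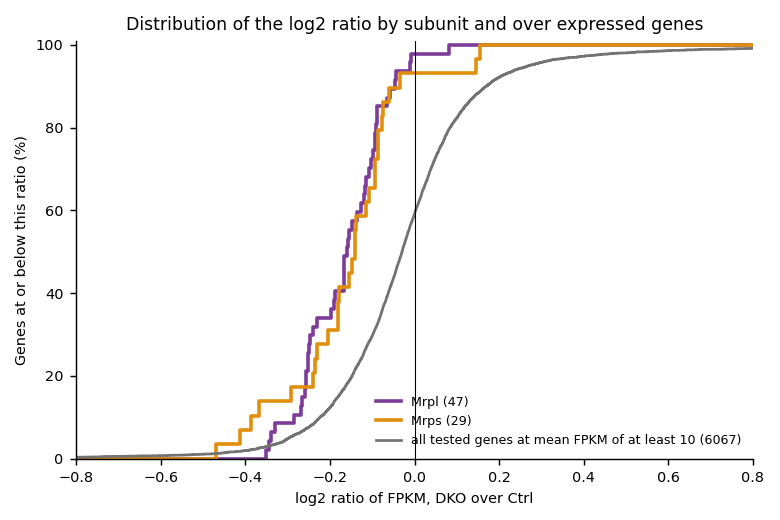
Cumulative share of genes (vertical axis, %) at or below each log2 ratio of FPKM, DKO over Ctrl (horizontal axis), for 47 Mrpl genes, 29 Mrps genes and 6067 tested genes with a mean of at least 10 FPKM and a finite ratio, members included. The curves of the subunits run close together, with medians of -0.16 and -0.14, and left of the curve of all such genes, with a median of -0.03.

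Symbols do not always name the subunit in which a protein sits. Mrps30 and Mrps18a belong to the large subunit in resolved structures of the mammalian ribosome, and the Mrps36 protein is now assigned to the oxoglutarate dehydrogenase complex. With Mrps30 and Mrps18a moved and Mrps36 left out, 5 of 49 large-subunit genes and 5 of 26 small-subunit genes fell, with medians of -0.16 and -0.14. Mrps36 was at 32.7 FPKM in DKO and 36.0 FPKM in Ctrl (log2 -0.14).

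Mammalian mitochondrial ribosomes carry proteins with a bacterial homologue and proteins specific to mitochondria. Of the 29 mitochondria-specific members, 7 fell, and the median log2 ratio was -0.18. Of the 46 with a bacterial homologue, 3 fell (Mrps28, Mrps9 and Mrpl32), and the median was -0.15. Within the large subunit, 4 of 19 specific members (21.1%) and 1 of 30 homologues (3.33%) fell. Within the small subunit, 3 of 10 specific members (30%) and 2 of 16 homologues (12.5%) fell. Of all tested genes 3.06% fell, so the share among large-subunit homologues was near that of all genes. Mrps18a and Mrps18b, neither of which fell, were counted as mitochondria-specific and Mrps18c as having a homologue, though their symbols differ only by a letter. Another placement was not tried, and whether these classes differ was not tested.

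Role groups were drawn up after the values had been seen, hold only some of the members, and only order the genes. No listed member of the stalk that receives the translation factors fell. Mrpl12 was described above, Mrpl10, which anchors it, was at 51.4 FPKM in DKO and 57.7 FPKM in Ctrl (log2 -0.17), and Mrpl11 of the stalk base was at 16.0 FPKM in DKO and 16.8 FPKM in Ctrl (log2 -0.07). None of 4 genes around the catalytic core fell either, with Mrpl2 at 84.0 FPKM in DKO and 98.6 FPKM in Ctrl (log2 -0.23) and Mrpl16 at 77.9 FPKM in DKO and 80.3 FPKM in Ctrl (log2 -0.04). Mrpl45 fell among the 6 genes listed for the tunnel exit, and Mrpl46 among the 7 listed for the central protuberance. Of the 4 listed for the small-subunit head, Mrps9 fell. The other members that fell, Mrps31 and Mrps35 among them, were placed in no group, so these counts do not cover whole regions. Along the path of the message, Mrps12 of the decoding centre was at 31.8 FPKM in DKO and 33.9 FPKM in Ctrl (log2 -0.09), Mrps5 at 20.6 FPKM in DKO and 24.2 FPKM in Ctrl (log2 -0.23) and Mrps24 at 65.3 FPKM in DKO and 73.9 FPKM in Ctrl (log2 -0.18). Mrps7, an early-assembling protein of the head, was at 63.4 FPKM in DKO and 70.5 FPKM in Ctrl (log2 -0.15). The medians of these 6 groups lay between -0.19 and -0.12.

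The ratios of the most abundant transcripts lay on both sides of 0, with Mrps23 the one above it. In the large subunit these transcripts were Mrpl42, then Mrpl33 (293 FPKM in DKO and 313 FPKM in Ctrl, log2 -0.09), Mrpl30 (276 FPKM in DKO and 294 FPKM in Ctrl, log2 -0.09), Mrpl12 and Mrpl14 (131 FPKM in DKO and 150 FPKM in Ctrl, log2 -0.20). In the small subunit they were Mrps21 (191 FPKM in DKO and 211 FPKM in Ctrl, log2 -0.15), Mrps23, Mrps16 (113 FPKM in DKO and 120 FPKM in Ctrl, log2 -0.09), Mrps18a (108 FPKM in DKO and 112 FPKM in Ctrl, log2 -0.06) and Mrps35. Of these 10, Mrps35 alone passed the test.

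Promoters were searched for sequence elements known from nuclear genes of mitochondrial proteins. RefSeq windows of 300 bases (GRCm38.p6, 250 bases before to 50 bases after the start) were matched by symbol to 67 of the 76 members, 8 of them members that fell. Windows were searched on both strands for an ETS core, CCGGAAG, as bound by GABP, an NRF1 core, CGCNTGCGC, and a YY1 core, AAGATGGCG. The 5 windows below belong to members that fell and are shown because they hold such a match, in capitals, and the windows of Mrpl46, Mrpl50 and Mrps31 hold none. They read 5′ to 3′ on the strand of the gene and lie at chr1:42850983-42851282, plus strand (Mrps9), chr9:98601630-98601929, minus strand (Mrps22), chr11:97315466-97315765, plus strand (Mrpl45), chr13:14612988-14613287, minus strand (Mrpl32) and chr4:107066817-107067116, minus strand (Mrpl37), all in GRCm38.
Mrps9: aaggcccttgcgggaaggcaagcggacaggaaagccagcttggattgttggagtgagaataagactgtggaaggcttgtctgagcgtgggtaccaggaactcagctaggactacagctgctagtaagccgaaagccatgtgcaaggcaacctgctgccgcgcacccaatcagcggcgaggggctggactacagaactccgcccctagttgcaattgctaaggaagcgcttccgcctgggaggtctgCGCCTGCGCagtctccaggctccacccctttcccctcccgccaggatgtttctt
Mrps22: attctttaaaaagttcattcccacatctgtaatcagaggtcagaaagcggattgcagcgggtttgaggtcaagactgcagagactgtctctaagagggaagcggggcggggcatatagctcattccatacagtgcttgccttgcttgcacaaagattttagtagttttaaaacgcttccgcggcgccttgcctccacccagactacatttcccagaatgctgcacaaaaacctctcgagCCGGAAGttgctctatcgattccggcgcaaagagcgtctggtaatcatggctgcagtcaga
Mrpl45: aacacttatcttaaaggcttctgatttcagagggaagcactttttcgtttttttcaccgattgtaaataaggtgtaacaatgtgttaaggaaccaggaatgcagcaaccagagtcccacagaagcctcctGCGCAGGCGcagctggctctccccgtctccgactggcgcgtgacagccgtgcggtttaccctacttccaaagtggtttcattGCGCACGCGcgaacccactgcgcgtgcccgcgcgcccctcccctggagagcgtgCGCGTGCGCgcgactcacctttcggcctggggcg
Mrpl32: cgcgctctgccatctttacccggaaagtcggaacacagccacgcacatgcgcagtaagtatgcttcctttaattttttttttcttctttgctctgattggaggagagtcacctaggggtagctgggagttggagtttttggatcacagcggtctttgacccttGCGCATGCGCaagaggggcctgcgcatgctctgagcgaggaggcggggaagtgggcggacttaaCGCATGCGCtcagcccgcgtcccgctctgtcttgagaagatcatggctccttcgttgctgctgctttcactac
Mrpl37: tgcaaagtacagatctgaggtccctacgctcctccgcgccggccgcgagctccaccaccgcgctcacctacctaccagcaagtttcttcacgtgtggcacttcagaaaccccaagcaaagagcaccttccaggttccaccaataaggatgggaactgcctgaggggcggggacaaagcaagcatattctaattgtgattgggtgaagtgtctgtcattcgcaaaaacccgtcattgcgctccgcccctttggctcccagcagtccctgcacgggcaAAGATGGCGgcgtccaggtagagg

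In Mrps9 the NRF1 letters span the start itself, beginning 4 bases upstream of it. In Mrps22 the ETS letters begin 11 bases upstream of the start. Mrpl45 holds 3 NRF1 matches, Mrpl32 holds a pair that overlap on opposite strands and 1 further match, and Mrpl37 holds the YY1 letters downstream of the start. Over all 67 windows, the ETS core was found in 24 (35.8%), beside 9.93% of the promoters of 27025 genes. The NRF1 core was found in 15 (22.4%), beside 7.03%, and the YY1 core in 8 (11.9%), beside 1.64%. At least 1 of the 3 was found in 40 members (59.7%), beside 16.5% of genes. The 27025 genes are all those with a window, whether or not they were expressed here, while every member was a tested gene. The shares among tested genes alone were not computed, so these are unlike sets.

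At least 1 match was present in 5 of 8 members that fell and in 35 of 59 that did not, and the median log2 ratio was -0.14 in the members with a match and -0.17 in those without. The motifs differed among themselves. The ETS core was present in 1 of 8 members that fell and in 23 of 59 others, with a median log2 ratio of -0.12 with it and -0.18 without. The NRF1 core was present in 3 of 8 that fell and in 12 of 59 others (medians -0.17 with it and -0.14 without), and the YY1 core in 1 of 8 and 7 of 59 (both medians -0.15). These differences were not tested. The factors that bind these letters were themselves measured and are named for that reason: Gabpa was at 16.8 FPKM in DKO and 19.1 FPKM in Ctrl, Nrf1 at 4.64 FPKM in DKO and 5.13 FPKM in Ctrl, and Yy1 at 20.3 FPKM in DKO and 20.2 FPKM in Ctrl, and none passed the test. A match is a string of letters and not a measured binding site.

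Many members share their promoter region with a gene on the opposite strand, a pattern looked for after the values had been seen. A start on the other strand within 1000 bases upstream was found for 25 of 67 members (37.3%), beside 12.3% of the same 27025 genes, expressed here or not. In 22 cases the neighbour was a tested gene outside the set. None of the 22 passed the test, beside 3.06% of all tested genes that fell and 4.3% that rose. An unadjusted p of at most 0.05 was found for 4 of the 22, all of them lower in DKO. They were Zfp189 and the genes of mitochondrial proteins Ndufb5, Sars2 and Ptcd2. At this threshold 7.76% of all tested genes were lower and 8.77% higher. The median log2 ratio of the 22 neighbours was -0.01, beside -0.0042 for all tested genes and -0.17 for the members they face. With 73 of 76 members below 0, the order within pairs says nothing by itself about shared promoters. Some neighbours were scarce, such as Eme1 at 1.10 FPKM in DKO and 0.695 FPKM in Ctrl. The member had the lower ratio in 20 of 22 pairs. The exceptions were Mrps12 (-0.09) with Sars2, the mitochondrial seryl-tRNA synthetase gene (-0.28), and Mrpl47 (-0.09) with Ndufb5, a complex I subunit gene (-0.22).

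Of the members that fell, 3 face a tested gene outside the set. Mrpl32 fell to 43.8 FPKM in DKO, against 55.4 FPKM in Ctrl, and its neighbour Psma2, a proteasome subunit gene, was at 95.8 FPKM in DKO and 104 FPKM in Ctrl (log2 -0.11, q 0.686 in the authors' deposited table). Mrpl37 faces Cyb5rl, at 7.82 FPKM in DKO and 7.44 FPKM in Ctrl (log2 0.07, q 0.921). Mrpl50 faces the zinc finger gene Zfp189, which had the lowest ratio of all neighbours, at 2.39 FPKM in DKO and 2.98 FPKM in Ctrl (log2 -0.32, q 0.270), close to the -0.34 of Mrpl50. In 1 pair both genes are members. Mrpl46, which fell, and Mrps11, at 20.9 FPKM in DKO and 22.5 FPKM in Ctrl (log2 -0.11, q 0.814), start 42 bases apart on opposite strands. Their windows share 141 bases. The Mrpl46 window (chr7:78783040-78783339, minus strand, GRCm38) is printed for this shared stretch and has no capitals, since none of the 3 motifs matched.
Mrpl46: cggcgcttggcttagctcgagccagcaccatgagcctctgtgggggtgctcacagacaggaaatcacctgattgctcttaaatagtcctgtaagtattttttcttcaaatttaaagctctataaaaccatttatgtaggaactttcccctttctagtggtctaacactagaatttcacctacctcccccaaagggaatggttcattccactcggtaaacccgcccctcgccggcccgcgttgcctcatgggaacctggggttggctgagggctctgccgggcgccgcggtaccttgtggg

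**Figure D3:**
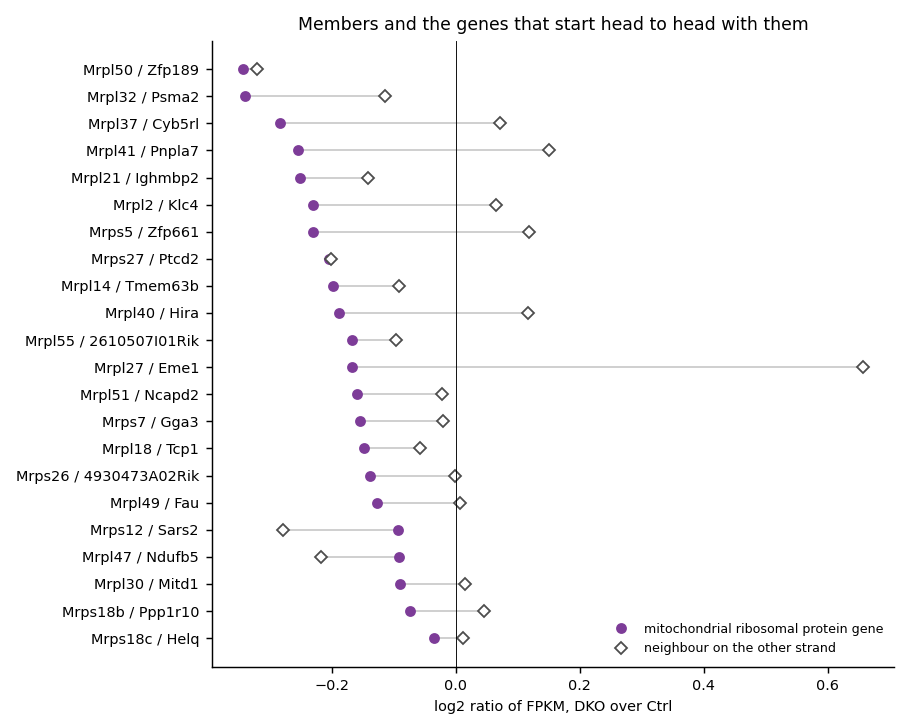
Log2 ratio of FPKM, DKO over Ctrl (horizontal axis), of 22 members (purple circles) and of the tested gene that starts head to head with each (open diamonds), 1 pair per row. The member lies left of its neighbour in 20 of 22 pairs, and the medians are -0.17 and -0.01.

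The authors' values for isoforms, start sites and coding sequences have the same direction with fewer calls, but give no separate support. Of the 10 members that fell, 9 have 1 isoform and repeat their gene values and p there. Only their q differs, being adjusted over other features. Mrpl46, with a Cuffdiff p of 0.0018 at both levels, had a q of 0.0293 as a gene and 0.0566 as an isoform. Of 99 tested isoforms of the members, 5 fell (those of Mrps28, Mrps9, Mrps22, Mrpl45 and Mrpl50), beside 1.12% of all tested isoforms, and 87 had a ratio below 0. Of 85 tested start site groups, 8 fell, beside 1.99% of all. Of 80 tested coding sequences, 7 fell, beside 1.66% of all. Every one of these features belonged to a gene that fell, and none rose.

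Of the 76 members, 53 had 1 isoform, and 9 of the 10 that fell were among these. The exception was Mrps35, whose isoforms had unlike values. Its reference transcript of 1067 bases was at 34.4 FPKM in DKO and 35.8 FPKM in Ctrl. Its isoform of 946 bases, assembled by the authors from the reads, was at 42.0 FPKM in DKO and 62.8 FPKM in Ctrl (log2 -0.58, q 0.154 in the authors' deposited table). In 10 members, tested isoforms had ratios on both sides of 0. In Mrpl33, a 466-base isoform was at 265 FPKM in DKO and 244 FPKM in Ctrl and a 414-base isoform at 28.4 FPKM in DKO and 68.8 FPKM in Ctrl. In Mrpl55, a 791-base isoform was at 26.8 FPKM in DKO and 42.9 FPKM in Ctrl and a 780-base isoform at 49.0 FPKM in DKO and 42.3 FPKM in Ctrl. None of these isoforms passed the test, and isoforms of 1 gene share reads, so the split between them is uncertain.

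**Figure D4:**
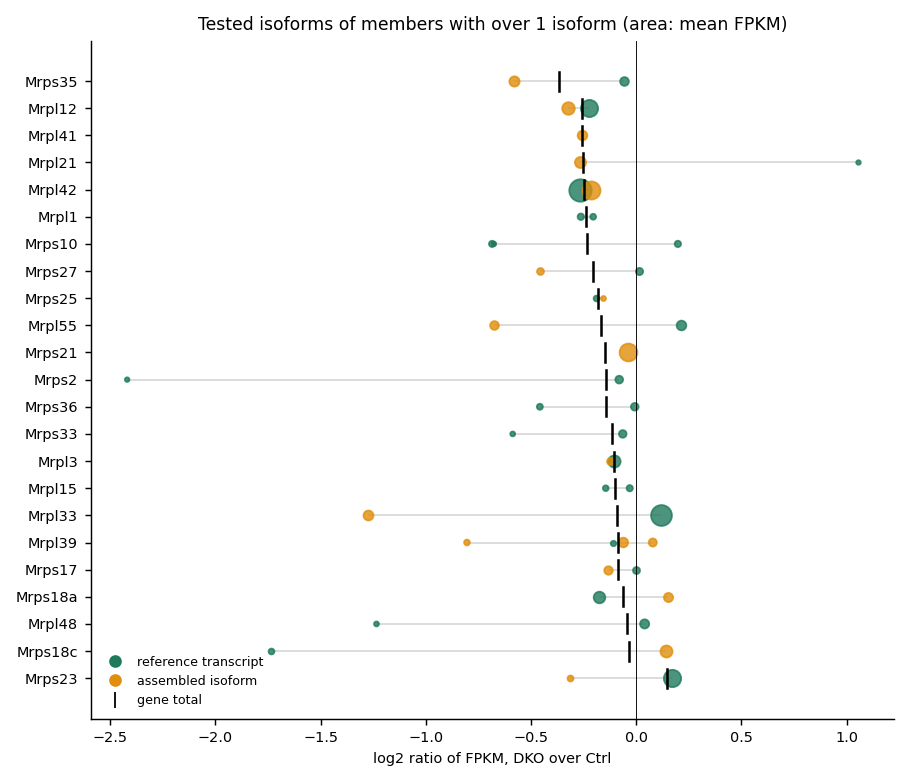
Log2 ratio of FPKM, DKO over Ctrl (horizontal axis), of each tested isoform of the members with over 1 isoform, 1 gene per row, with circle area in proportion to the mean FPKM plus a fixed minimum, green for reference transcripts and orange for isoforms assembled by the authors. Black bars give the gene totals, which lie closer to 0 than many of the isoforms, as in Mrpl33 at -0.09 with isoforms at 0.12 and -1.28.

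Other genes of mitochondrial protein synthesis had ratios close to those of the ribosome. Beside the lists here and below, 3.06% of all tested genes fell and 4.3% rose, with a median log2 ratio of -0.0042. Of 7 mitochondrial ribosome proteins under other symbols, none fell and all had ratios below 0, with a median log2 of -0.19. Chchd1 was the most abundant of them, at 138 FPKM in DKO and 147 FPKM in Ctrl. Of 15 translation factors, 2 fell and all 15 had ratios below 0 (median -0.19). Those that fell were Tufm, the elongation factor that brings aminoacyl-tRNA to the ribosome, at 71.2 FPKM in DKO and 91.9 FPKM in Ctrl (log2 -0.37, q 0.00926 in the authors' deposited table), and Taco1, a translational activator of cytochrome c oxidase subunit I, at 54.0 FPKM in DKO and 65.9 FPKM in Ctrl (log2 -0.29, q 0.0473). The most abundant factor was Gfm1, an elongation factor that moves the ribosome along the message, at 112 FPKM in DKO and 122 FPKM in Ctrl (log2 -0.13). Of 17 mitochondrial aminoacyl-tRNA synthetases, 3 fell, namely Lars2 (47.2 FPKM in DKO and 56.7 FPKM in Ctrl), Yars2 (25.5 FPKM in DKO and 32.1 FPKM in Ctrl) and Pars2 (2.62 FPKM in DKO and 3.76 FPKM in Ctrl), and the median was -0.21. Iars2, the most abundant synthetase gene, was at 62.3 FPKM in DKO and 63.9 FPKM in Ctrl (log2 -0.04). Of 24 ribosome assembly genes, none fell, 7 were lower at an unadjusted p of at most 0.05, and the median was -0.18. C1qbp was the most abundant of them, at 148 FPKM in DKO and 173 FPKM in Ctrl (log2 -0.22).

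Of 13 genes that transcribe mitochondrial DNA and process its RNA, none fell, 4 were lower at an unadjusted p of at most 0.05 and 12 had ratios below 0. Their median was -0.08, while their summed level, 536 FPKM in DKO and 602 FPKM in Ctrl, stood at a ratio of 0.890. Hsd17b10, a subunit of mitochondrial RNase P, was the most abundant and had the lowest ratio of the list, at 158 FPKM in DKO and 186 FPKM in Ctrl (log2 -0.23). Of 11 regulators of mitochondrial genes, none fell, 1 rose, 2 were lower at an unadjusted p of at most 0.05 and 7 had ratios below 0, with a median of -0.14. Myc, a growth-promoting transcription factor, rose to 2.26 FPKM in DKO, against 0.966 FPKM in Ctrl (log2 1.22, q 0.00158 in the authors' deposited table), and Esrra, the most abundant regulator, was at 77.1 FPKM in DKO and 85.3 FPKM in Ctrl.

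The respiratory chain, whose mitochondrially encoded subunits this ribosome makes, was also lower in its nuclear-encoded part. Its list medians lay further below 0 than the -0.15 of the mitochondrial ribosome. Of 36 complex I genes, 5 fell (Ndufs4, Ndufs7, Ndufs8, Ndufv2 and Ndufv3) and all had ratios below 0, with a median of -0.19. The most distant from 0 of these was Ndufs8, an iron-sulfur subunit, at 350 FPKM in DKO and 441 FPKM in Ctrl (log2 -0.33). Of 4 complex II genes, Sdhb fell, to 1002 FPKM in DKO, against 1237 FPKM in Ctrl, and the median was -0.26. Of 35 genes of complexes III, IV and V, 6 fell (Uqcrc1, Uqcrc2, Cox6a2, Cox7a1, Atp5d and Atp5g3), with a median of -0.20. Genes of the cytosolic ribosome had ratios nearer to 0. Of 78 tested, none fell, 2 rose (Rpl3 and Rps2), 47 had a ratio below 0 and the median was -0.02, beside 73 of 76 and -0.15 in the mitochondrial ribosome. Summed over all 80 listed, tested or not, they were at 12219 FPKM in DKO and 12492 FPKM in Ctrl. Cytosolic ribosomal protein genes have many processed pseudogene copies, so single values among them are uncertain, and with them the sum and the median.

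Markers of the cell types of the ventricle differed in level as well. Of 12 cardiomyocyte markers, none passed the test and 11 had ratios below 0, with a median of -0.19, and their summed level was 70873 FPKM in DKO and 80497 FPKM in Ctrl, a ratio of 0.880. The members' sums stood at a like ratio, 5499 to 6120 FPKM. Of 12 fibroblast markers, 9 rose, among them the matrix genes Postn, Col1a1 and Col3a1 (sum over the list 1448 FPKM in DKO and 1152 FPKM in Ctrl). Of 13 tested macrophage markers, 10 rose, among them Lyz2 and Csf1r (sum over the list 428 FPKM in DKO and 278 FPKM in Ctrl). Of 8 smooth muscle and mural markers, Acta2 rose (sum over the list 638 FPKM in DKO and 551 FPKM in Ctrl). None of 10 endothelial markers passed (sum over the list 536 FPKM in DKO and 572 FPKM in Ctrl). No tested marker was at 0 in either genotype. The part of these shifts in the lower level of the mitochondrial ribosome genes was not tested.

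**Figure D5:**
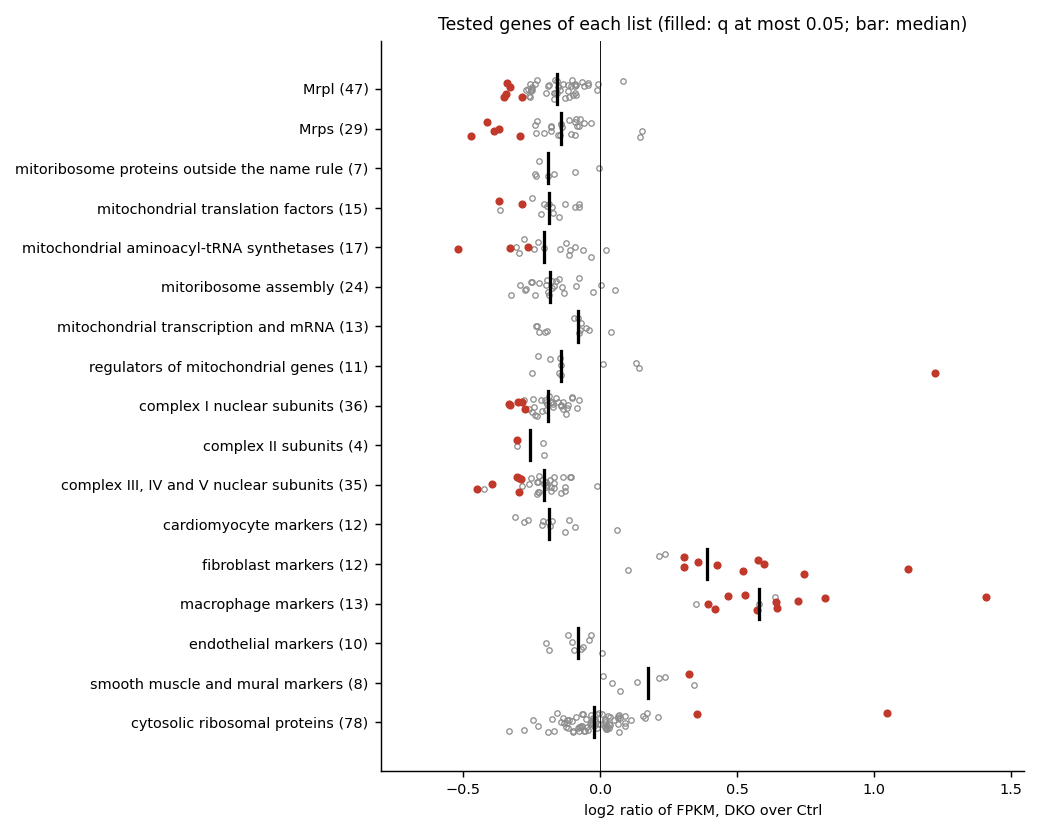
Log2 ratio of FPKM, DKO over Ctrl (horizontal axis), of each tested gene of the Mrpl and Mrps sets and of 15 further gene lists, 1 list per row with the number of genes in brackets, filled red where q is at most 0.05 and open gray otherwise, with black bars for medians. The Mrpl and Mrps rows (medians -0.16 and -0.14) lie near the rows of complex I and the cardiomyocyte markers (both -0.19), and the cytosolic ribosomal proteins lie near 0 (-0.02).

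A separately listed locus overlaps 8 members, none of which fell, beside 10 of all 76 members and 3.06% of all tested genes. This count leaves out Mrps6 and Mrpl53, whose loci are listed jointly with Slc5a3 and Ccdc142. Whether strand was used in counting is not stated, so reads of such overlapping genes cannot be told apart.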

How the data were processed

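RNA from ventricles of 4 DKO and 4 Ctrl mice was sequenced as single-end Illumina libraries made with a TruSeq kit, per the labels' protocols. Reads were processed with TopHat2 2.0.9, Cufflinks 2.1.1 and Cuffdiff 2.1.1 on the mouse build mm9, per the submitters' processing notes. Neither the annotation nor the strand setting or other parameters are stated in the labels or headers. The authors deposited 1 FPKM value per genotype and feature, per the file headers, pooled over the animals, in 4 tables used here (genes, isoforms, start site groups and coding sequences). The p-values and q-values are the authors' Cuffdiff results, per the file headers. A further deposited table repeats a subset of the genes and was not used.

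No test across animals was possible, and no p-value was computed here. Depth is unknown, so no interval was computed. Log2 ratios were recomputed from the deposited FPKM values as DKO over Ctrl, in place of the deposited log2 column. A feature was called at a q of at most 0.05. Lists are described by counts and medians beside all tested genes. The members and lists were chosen with earlier results of these data known. Full values were given for members that were called, had an unadjusted p of at most 0.05, had the 5 highest or lowest ratios or the 5 highest levels of their subunit, and for Mrpl10, Mrpl11, Mrpl12, Mrps12 and Mrps7, and of the lists the rule took called members and the most abundant one. In the lists of the respiratory chain, the cytosolic ribosome and the cell types, these were given in part, by name or by count. Further genes were named for a motif, a neighbour, an isoform or a role after their values were seen. The listed starts count from 0, so 1 was added. Promoters are RefSeq windows of GRCm38.p6, matched by symbol for all members but Mrpl13, Mrpl15, Mrpl19, Mrpl38, Mrpl4, Mrpl54, Mrps28, Mrps34 and Mrps35. The scripts were tested on simulated data. Alternatives covered the threshold, the level filter, the feature level, the scaling, a pseudocount of 1 FPKM and the subunit assignment. Python 3.11.15, pandas 2.3.3, numpy 2.4.6 and matplotlib 3.10.9 were used.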

Additional observations from a re-analysis of the deposited data

How the results depend on the processing

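The median log2 ratio of the members stayed between -0.16 and -0.14 under every alternative run. Most members have 1 isoform and so repeat their gene values at the other feature levels. The number of members that fell was 10 with a mean of at least 10 FPKM or with single-name loci, 8 with start site groups and 7 with coding sequences. It was 5 with the most abundant isoform and 4 at a q of at most 0.01, where the share of all tested genes was not computed. At a fold of at least 1.3 it was 3 of 76, beside 207 of all 12133 tested genes. With an unadjusted p of at most 0.05 it was 25 (32.9%), beside 7.76% of all tested genes. The difference of the medians, large minus small subunit, was -0.047 with coding sequences and -0.048 with isoforms, where the small-subunit median was -0.11. With isoforms and with coding sequences, 67 of 76 members had a ratio below 0 in place of 73. Mrpl33 was at 0.12 and Mrps10 at 0.20 with both isoforms and coding sequences, and Mrpl21 at 1.05 with coding sequences, where its only listed sequence is that of an isoform at 0.956 FPKM in DKO and 0.460 FPKM in Ctrl. Mrpl55 was at 0.21, Mrpl48 at 0.04 and Mrps27 at 0.013 in both tables, and Mrps18c at 0.14 with isoforms. For these, Mrpl33 and Mrps10 the cause was not tested. Neither log2(FPKM + 1) nor rescaling recomputes the authors' q, and rescaling by the median of all tested genes (-0.0042) moves every ratio alike, so they test no call.

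No paired analysis was possible because the tables hold 1 pooled value per genotype and their columns carry no replicate number. Leaving out each replicate could not be done for the same reason. The smallest p in the authors' deposited table is 5e-05, so it does not rank Mrps28 and Mrps9.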

Other observations

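Locus length varied widely among the members, between 0.828 and 121.7 kb in the deposited mm9 positions. The 10 genes that fell had a median locus of 13.6 kb and the others 7.47 kb. Mrps28, with the lowest ratio, has the longest locus, and Mrps9, with the next lowest, spans 54.5 kb. Across the 76 members, length and log2 ratio had a Spearman rho of -0.136. Of 7 members over 50 kb, 2 fell (Mrps28 and Mrps9), and the median log2 ratio of the 7 was -0.21, beside -0.15 in the shorter ones. The 7 include the Mrps6 locus of 53.9 kb, which is listed jointly with Slc5a3. The share of all tested genes over 50 kb that fell was not computed. This pattern of length was looked for after the values had been seen and was not tested.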
